A study of Mus musculus with 12 samples.

Results

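Unnamed antisense transcripts were described in the hippocampus and the cerebral cortex of mice. They are the transcripts that the GENCODE M21 annotation types as antisense and whose gene carries only a catalogue name, either Gm and a number or a RIKEN clone name ending in Rik. Of the 48033 transcripts in the deposited lncRNA count table, 3958 were annotated as antisense, 3330 of these had an unnamed gene, and 54 on chromosomes X and Y were dropped. Of the 3276 transcripts left, 2321 had a Gm name and 955 a Rik name, and they belonged to 2378 genes. On the strand opposite to them, 2857 overlapped at least 1 protein-coding gene, 1975 genes in all, and 234 overlapped more than 1.

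The libraries came from 7-month-old C57BL/6J mice, 3 WT (non-transgenic) and 3 5 × FAD, with both brain regions taken from each mouse, which gave 12 libraries in 4 groups of 3. 5 × FAD mice carry human transgenes, APP among them, with familial Alzheimer's disease mutations, driven in neurons by Thy1 promoter elements, and are a model of amyloid deposition and memory loss. WT animals carry no transgene. Total RNA was freed of ribosomal RNA and sequenced from stranded libraries. For its circRNA sequencing, the authors' paper also describes removal of linear RNA with RNase R. Whether the libraries counted here were treated in that way was not tested, and it would bear on the levels of linear transcripts. The question asked of the antisense transcripts was where they lie, which ones were measured, and how their levels differed between the regions and between the genotypes.

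An antisense transcript is copied from the DNA strand opposite to that of a gene, so its exons can be complementary to the gene's mRNA. Antisense transcripts are known to act in some loci on the chromatin or transcription of the overlapped gene, in others on the splicing or stability of its mRNA, and in many no function is known. Many start close to the promoter of the overlapped gene and run away from it, an arrangement called head to head, while others meet the gene's end (tail to tail) or lie inside it. In the brain they are often present at low levels and in few cell types.

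The stretches in which an antisense transcript is complementary to coding sequence show what an exon-to-exon overlap is. They are printed for 8 transcripts that are described further on, because their overlapped genes encode receptors, structural proteins and an enzyme, among others of known function. Each is read 5′ to 3′ along the antisense strand from the annotated transcript on GRCm38, capitals mark bases that are complementary to a coding exon of the overlapped gene, and where the complementary run was longer than 150 bases only a part is in capitals.

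Gm14285 (lies opposite Adra1d, an adrenergic receptor, chr2:131561614-131561760, plus strand): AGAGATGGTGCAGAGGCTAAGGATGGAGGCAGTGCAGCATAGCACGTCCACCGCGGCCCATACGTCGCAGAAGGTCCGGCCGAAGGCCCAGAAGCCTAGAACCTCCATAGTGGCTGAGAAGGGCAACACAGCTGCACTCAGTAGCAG
Gm26560 (lies opposite Drd5, a dopamine receptor, chr5:38320736-38320897, minus strand): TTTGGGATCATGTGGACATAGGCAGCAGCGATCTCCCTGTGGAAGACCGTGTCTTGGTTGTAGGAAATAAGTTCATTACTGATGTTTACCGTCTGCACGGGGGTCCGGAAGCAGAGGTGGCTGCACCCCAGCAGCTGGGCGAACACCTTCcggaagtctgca
Gm16268 (lies opposite Stab2, a scavenger receptor for hyaluronan, chr10:86871800-86871964, plus strand): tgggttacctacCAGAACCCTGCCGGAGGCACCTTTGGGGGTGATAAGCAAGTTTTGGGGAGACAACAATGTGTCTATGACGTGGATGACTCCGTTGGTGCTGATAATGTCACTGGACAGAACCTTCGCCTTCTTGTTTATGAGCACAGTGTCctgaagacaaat
Gm26691 (lies opposite Cxxc4, an inhibitor of Wnt signalling, chr3:134240480-134240641, minus strand): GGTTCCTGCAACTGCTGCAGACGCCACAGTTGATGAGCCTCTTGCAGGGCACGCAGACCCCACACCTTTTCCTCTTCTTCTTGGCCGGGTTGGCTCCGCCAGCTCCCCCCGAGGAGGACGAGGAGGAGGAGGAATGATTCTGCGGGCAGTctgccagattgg
Gm16564 (lies opposite Kif26b, a kinesin family protein, chr1:178917453-178917614, minus strand): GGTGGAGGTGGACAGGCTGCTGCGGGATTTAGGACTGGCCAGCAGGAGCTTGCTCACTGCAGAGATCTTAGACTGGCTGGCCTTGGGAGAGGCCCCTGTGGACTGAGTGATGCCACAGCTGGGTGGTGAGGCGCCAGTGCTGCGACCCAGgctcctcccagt
A830036E02Rik (lies opposite Krt12, a keratin of the cornea, chr11:99421865-99422026, plus strand): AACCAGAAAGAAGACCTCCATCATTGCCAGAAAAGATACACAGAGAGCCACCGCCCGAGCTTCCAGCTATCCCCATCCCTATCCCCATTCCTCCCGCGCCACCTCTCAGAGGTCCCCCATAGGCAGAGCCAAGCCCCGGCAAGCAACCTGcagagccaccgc
Gm45441 (lies opposite Grin2d, an NMDA receptor subunit, chr7:45834237-45834410, plus strand): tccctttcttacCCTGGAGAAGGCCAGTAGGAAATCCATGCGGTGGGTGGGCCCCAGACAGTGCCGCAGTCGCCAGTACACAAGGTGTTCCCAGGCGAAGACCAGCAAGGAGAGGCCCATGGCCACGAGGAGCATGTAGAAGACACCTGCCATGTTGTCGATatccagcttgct
Gm16536 (lies opposite Bace1, the β-secretase that cuts the amyloid precursor protein, chr9:45857174-45857260, minus strand): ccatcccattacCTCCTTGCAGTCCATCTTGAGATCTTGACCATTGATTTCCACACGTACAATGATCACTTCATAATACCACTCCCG

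The complementary runs were 147 bases long in Gm14285, 1232 in Gm26560, 141 in Gm16268, 243 in Gm26691, 909 in Gm16564, 352 in A830036E02Rik, 233 in Gm45441 and 75 in Gm16536. In Gm14285, Gm26691, Gm26560 and Gm16564 the complementary run began at the first base of the antisense transcript. The full length of these 4 transcripts was 380, 4401, 2619 and 3010 bases.

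Library totals ran from 3517967 to 5014389 counts, so that 3 counts, the level taken as detected, stood for 0.598 to 0.853 CPM (counts scaled to a library of 1000000). All WT libraries and those of 5 × FAD 3 held 1074 to 1661 counts of Y-linked transcripts and 4 to 25 of Xist, while 5 × FAD 1 and 2 held 0 and 30468 to 46630 in both regions. The series gives 2 females and 1 male for each genotype, so the libraries went against it in WT, and genotype and sex cannot be fully told apart. The transcripts listed for Thy1, whose promoter drives the transgenes, had 423 to 621 counts in 5 × FAD 1 and 2, 157 to 158 in 5 × FAD 3 and 139 to 202 in WT, so the libraries labelled 5 × FAD 3 did not show the higher Thy1 counts of the other 5 × FAD libraries. Genotype results are also given without 5 × FAD 1 and 2, where the lone remaining mouse is assumed to vary like the others. Because that mouse is the one with Thy1 counts in the WT range, such values do not tell genotype and sex apart. In the hippocampus, the summed level of the hippocampus markers was 306.0 to 349.7 CPM in WT and 320.1 to 325.8 CPM in 5 × FAD, above the 141.3 to 193.5 CPM of the cortex, from 8 of 20 genes with listed transcripts. Cerebral cortex markers (12 of 20) overlapped between the regions in both genotypes, with 332.3 to 615.7 CPM in the cortex and 386.2 to 550.7 CPM in the hippocampus. The chemistry marks strand, but whether strand was used in counting is not given in the sources used here, so reads of an antisense transcript and of the gene it overlaps may not be told apart. In bulk tissue, fewer cells of a type and less RNA per cell cannot be told apart either.

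The most frequent position was inside another gene. Of the 3276, 1585 were contained in the span of the overlapped gene, 703 were head to head with it, 490 were tail to tail and 79 spanned a whole gene. The remaining 419 overlapped no protein-coding gene on the other strand, and 164 of these lay within 1000 bases of one. The median length was 744 bases, 237 had a single exon and 1370 had 2. In the 703 head-to-head pairs the starts of the transcript and of the gene lay a median of 775 bases apart, and 405 pairs (57.6%) had them within 1000 bases.

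How often an antisense transcript was measured differed with its position. A mean of at least 1 CPM was reached by 796 of the 3276 (24.3%). The share was 46.5% of the 551 head-to-head transcripts whose exons overlapped exons of the gene and 24.3% of the 152 that met only introns. Tail to tail, it was 34.4% of 384 with exon overlap and 21.7% of 106 without. Inside a gene it was lowest, 16.5% of 776 with exon overlap and 8.41% of 809 that lay opposite introns only, and with no coding gene opposite it was 30.5%. These shares describe the table and were not tested, and neither was the part that reads of the overlapped gene may have in them.

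**Figure D1:**
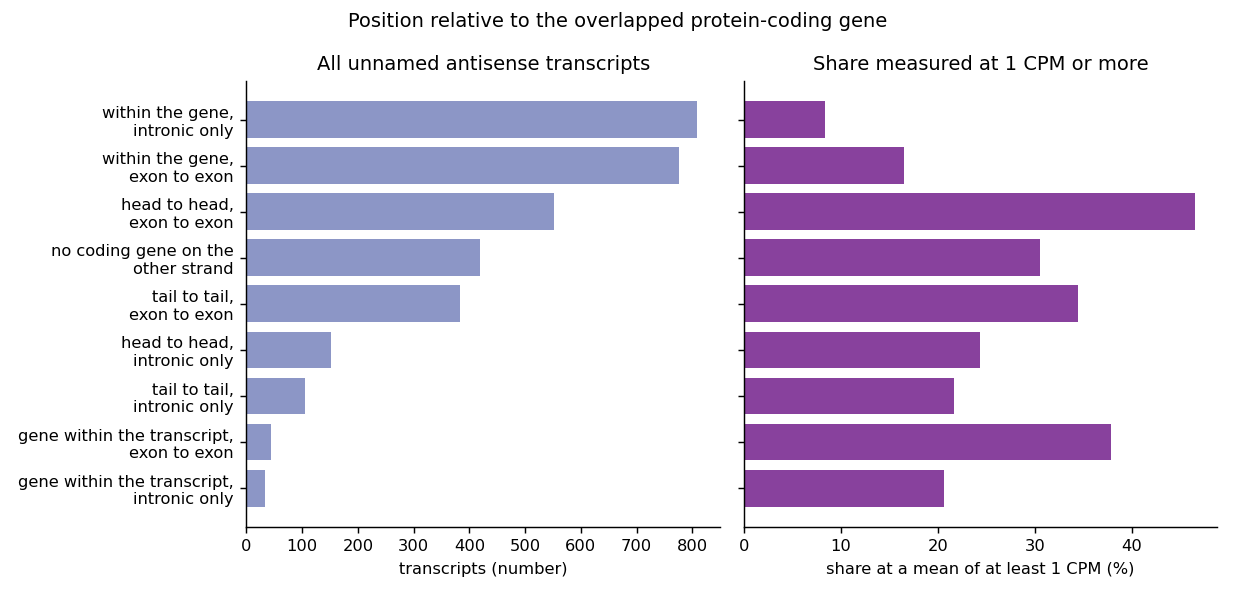
Positions of the 3276 unnamed antisense transcripts relative to the protein-coding gene on the other strand. Bars give the number of transcripts in each class (left) and the percentage of that class with a mean of at least 1 CPM over 12 libraries (right), which was 46.5% for head-to-head transcripts with exon overlap and 8.41% for transcripts opposite introns inside a gene.

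Levels were low. In all 12 libraries 1198 of the transcripts (36.6%) had 0 counts, 689 more had 1 to 9 counts in all, 148 reached 10 CPM and 9 reached 100 CPM. Together they took 0.765% to 1.05% of the counts of a library, and 831 to 973 of them had at least 3 counts in a library. A single transcript held 18.9% of these counts and the top 10 held 34.8%. That transcript was B230334C09Rik, a single exon of 8927 bases at chr3:158067186-158076112, whose end overlaps the end of Lrrc40, a gene for a leucine-rich repeat protein. It had 5704 to 8127 counts in the cortex and 5347 to 8769 in the hippocampus. Per kilobase of transcript, B230334C09Rik stood at 185.8 CPM, followed by the 4933431E20Rik transcript ENSMUST00000152663 at 111.4, which meets the end of Eps8l3, an adaptor of receptor tyrosine kinase signalling, and Gm14286 at 67.4, which has no coding gene opposite.

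The share of a library's counts in the unnamed antisense transcripts overlapped between the groups, except that in 5 × FAD it was lower in all 3 hippocampus libraries than in all 3 of the cortex. It was 0.952% ± 0.107 (SD, n = 3) in the cortex of WT, 0.933% ± 0.0171 in the cortex of 5 × FAD, 0.842% ± 0.0438 in the hippocampus of WT and 0.79% ± 0.0383 in the hippocampus of 5 × FAD. Between the genotypes the 2-sided exact permutation p was 0.2 in the hippocampus and 0.7 in the cortex. Between the regions the exact permutation p was 0.3 in WT and 0.1 in 5 × FAD, and 0.1 is the smallest that 3 against 3 libraries allow.

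More antisense transcripts were called between the regions than between the genotypes. The fits kept 634 of the 3276 transcripts (486 genes) in all 12 libraries and 510 to 523 in a comparison of 6, and the others had too few counts to be tested. In WT, 8 of 520 (1.54%) differed between hippocampus and cortex at a Benjamini-Hochberg adjusted p under 0.05 in the quasi-likelihood test of edgeR, against 0.986% of all transcripts tested. Of the 8, 4 were higher in the hippocampus (0.769%, against 0.582% of all) and 4 were lower (0.769%, against 0.404%). All 8 calls were lost when any 1 WT library was left out, except that 3 remained without WT 3 of the cortex. Over all transcripts, such fits called 7 to 63, against 217 with every WT library. With the replicate number as a block 0 were called, and DESeq2 called 28 (5.38%, against 3.38% of all). In 5 × FAD 0 of 510 were called by edgeR (0.0182% of all), 58 had an unadjusted p under 0.05 (11.4%, against 9.38% of all) and DESeq2 called 8 (1.57%, against 1.66% of all).

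A fit of the region difference over all 12 libraries with genotype as a covariate, added after the data were seen, called 31 of 634 (4.89%, against 2.63% of all transcripts). Both regions came from the same mice, and this fit takes the 12 libraries as independent. With the replicate number as a block 12 of the 31 were called, and DESeq2 called 53 (8.36%, against 5.18% of all). Of the 31 called by edgeR, 14 were higher in the hippocampus (2.21% of those tested, against 1.49% of all) and 17 lower (2.68%, against 1.14%). They belonged to 29 genes and lay opposite 26 protein-coding genes, and 17 of the 31 were head to head. All 31 had the same sign in WT and in 5 × FAD, and 23 had regions that did not overlap in either genotype. The fit pools both genotypes and so favours such transcripts, and this agreement is no separate evidence. Of all 634 tested, 14 were higher in the hippocampus without overlap in either genotype (2.21%, against 2.25% of all) and 25 lower (3.94%, against 2.02%). By position, 17 of 242 tested head-to-head transcripts were called (7.02%), 6 of 150 inside a gene (4%), 4 of 124 tail to tail (3.23%) and 4 of 100 with no coding gene opposite (4%), a difference in share that was not tested. With 1 library left out, 14 to 20 were called without any of the 6 WT libraries, without 5 × FAD 1 or 2 of the cortex or without 5 × FAD 2 of the hippocampus, and 25 to 29 without any of the other 3. Over all transcripts, leaving out 1 library gave 412 to 723 calls, against 647 with all 12. Without 5 × FAD 1 and 2 in both regions, 8 of 789 were called, against 188 of all 27506 transcripts tested. Only 6 of the 31, from 5 genes, were called in each of the 19 or 20 alternatives run for them, and these were 2310002F09Rik with 2 transcripts, C630031E19Rik, Gm2164, Gm13629 and Gm45470.

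Between the genotypes the region differences were measured on separate libraries. Over the 453 transcripts tested in both, 61.6% had the same sign in WT and 5 × FAD and Pearson's r was 0.48 across transcripts, which are not independent replicates. Over all 20658 transcripts tested in both, these were 56.7% and 0.23.

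**Figure D2:**
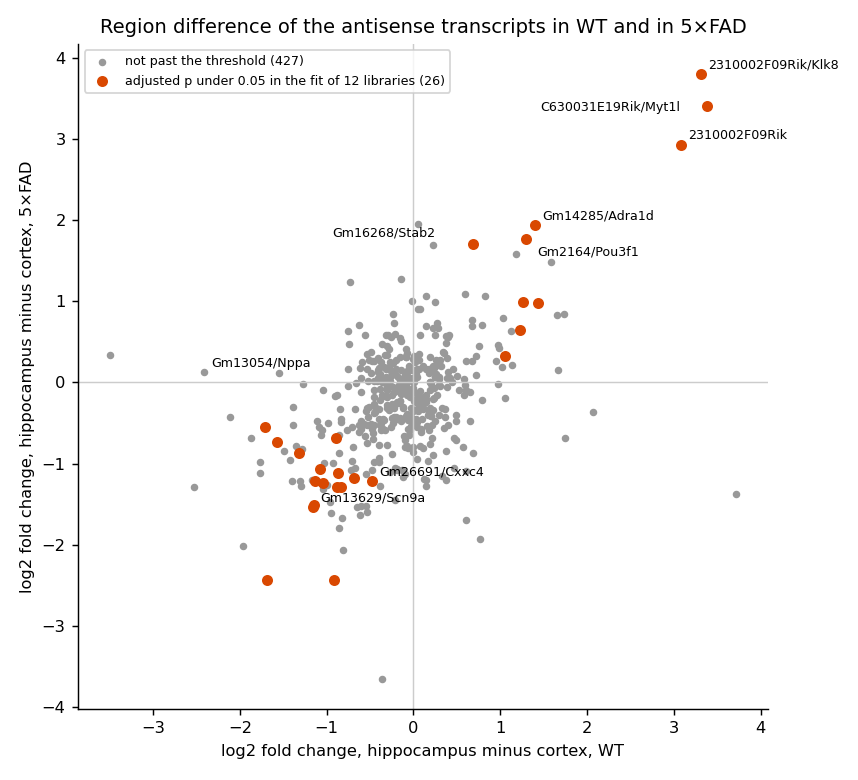
Region difference of 453 unnamed antisense transcripts in WT (x axis) and in 5 × FAD (y axis), each as the log2 fold change of hippocampus minus cortex. The 26 orange points passed an adjusted p under 0.05 in the fit of 12 libraries and have the same sign on both axes, and 427 grey points did not pass. That fit pools both genotypes, which favours points with the same sign.

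At 2 loci, C630031E19Rik and 2310002F09Rik, antisense transcripts with few counts in the cortex were higher in the hippocampus. C630031E19Rik (ENSMUST00000218114) lies at chr12:29675628-29686445 inside Myt1l, a zinc finger transcription factor of neurons, opposite introns only. In the cortex it had 3, 4 and 4 counts in WT 1 to 3 and 12, 2 and 0 in 5 × FAD 1 to 3. In the hippocampus it had 42, 47 and 44 counts in WT against 35, 53 and 61 in 5 × FAD. Every hippocampus library stood above every cortex library, with means of 9.68 ± 0.574 and 11.9 ± 3.23 CPM (SD, n = 3) in the hippocampus of WT and 5 × FAD and 0.905 ± 0.215 and 1.06 ± 1.4 CPM in the cortex. The log2 fold change was 3.41 ± 0.51 (SE, edgeR adjusted p = 0.00372). The 6 transcripts listed for Myt1l itself differed by 0.37 ± 0.14 on the log2 scale, with an edgeR adjusted p of 0.158.

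2310002F09Rik lies among the kallikrein genes of chromosome 7. Its transcript ENSMUST00000181454 (chr7:43695209-43797945) starts 368 bases inside Klk8, which encodes neuropsin, a serine protease of hippocampal neurons that acts on synaptic plasticity. The transcript ENSMUST00000181551 (chr7:43745466-43748793) has no coding gene on the other strand. The latter had 4, 10 and 12 counts in the cortex of WT and 8, 6 and 7 in that of 5 × FAD, against 78, 86 and 91 and 30, 61 and 70 in the hippocampus. The former had 0 to 4 counts in the cortex, 32 to 44 in the hippocampus of WT and 11 to 28 in that of 5 × FAD. Neither transcript overlapped between the regions in any genotype. Their log2 fold changes were 3.02 ± 0.29 (edgeR adjusted p = 0.00038) and 3.52 ± 0.43 (edgeR adjusted p = 0.00109). All 3 tested transcripts of the gene were higher in the hippocampus, by 2.80 to 3.52. The transcript listed for Klk8 had 46 counts in all and was not tested.

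Antisense transcripts opposite Pou3f1, Adra1d, Drd5 and Stab2 were also higher in the hippocampus. Gm2164 (chr4:124528924-124657169) starts 362 bases from the start of Pou3f1, a POU domain transcription factor of cortical neurons and Schwann cells. Its counts were 61, 48 and 36 in the cortex of WT, 21, 42 and 41 in that of 5 × FAD, 132, 136 and 133 in the hippocampus of WT and 99, 132 and 129 in that of 5 × FAD. The lowest hippocampus library exceeded the highest cortex library, and the log2 fold change was 1.54 ± 0.21 (edgeR adjusted p = 0.00236).

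Gm14285, whose first 147 bases are complementary to Adra1d, had 9, 8 and 7 counts in the cortex of WT and 8, 7 and 4 in that of 5 × FAD. In the hippocampus it had 22, 28 and 22 counts in WT against 27, 25 and 22 in 5 × FAD. The regions did not overlap, and the log2 fold change was 1.68 ± 0.23 (edgeR adjusted p = 0.00205). Gm26560, which begins inside the coding sequence of Drd5, had 0 to 4 counts in the 6 cortex libraries, 17, 30 and 13 in the hippocampus of WT and 9, 14 and 14 in that of 5 × FAD, a log2 fold change of 2.84 ± 0.58 (edgeR adjusted p = 0.0251). Gm16268, opposite the Stab2 gene, had 14, 20 and 13 counts in the cortex of WT and 9, 10 and 13 in that of 5 × FAD, against 29, 31 and 25 and 37, 30 and 38 in the hippocampus. The groups did not overlap, and its log2 fold change was 1.20 ± 0.23 (edgeR adjusted p = 0.0164).

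Other transcripts passed the test in this direction as well, and some had smaller or less even differences. Gm29491, head to head with Tgfb2, a cytokine of the transforming growth factor family, was higher by 1.77 ± 0.37. Gm45774, opposite Mt2, a metal-binding metallothionein, was higher by 1.54 ± 0.32 with 2 to 8 counts in the cortex and 6 to 18 in the hippocampus. Gm16758 lies opposite introns of Mdga1, a membrane protein that binds neuroligins, and was higher by 1.14 ± 0.23. A930024E05Rik, head to head with the histone demethylase gene Kdm2b, was higher by 0.95 ± 0.16. The A230077H06Rik transcript ENSMUST00000188579 was higher by 0.71 ± 0.16. This transcript has no coding gene opposite, while another transcript of the same gene lies opposite Vstm2b. 9630001P10Rik, head to head with Fam184b, was listed at 0 in 5 of 6 cortex libraries and at 0 in WT 2 and 3 of the hippocampus, against 38 counts in WT 1 and 21 to 35 in 5 × FAD. Its fitted log2 change of 6.19 ± 1.33 is therefore no bound, and in WT the difference rests on WT 1 alone. Summed with the other transcripts of its gene, 9630001P10Rik differed by -0.08 ± 0.28, and with any 1 cortex library left out its call was lost. Gm15624, opposite introns of the dynactin gene Dctn1, was called in WT alone, with 0 counts in every cortex library of WT and 37, 35 and 21 in the hippocampus, at least 8.63-fold higher than a floor of 3 counts per cortex library. In the hippocampus of 5 × FAD it had 0, 23 and 0 counts, so the difference was not even across mice. Summed with the other transcripts of its gene, Gm15624 had 21.5 CPM in the cortex of WT and 41.1 CPM in the hippocampus of WT. That difference was 0.93 ± 0.17 on the log2 scale.

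**Figure D3:**
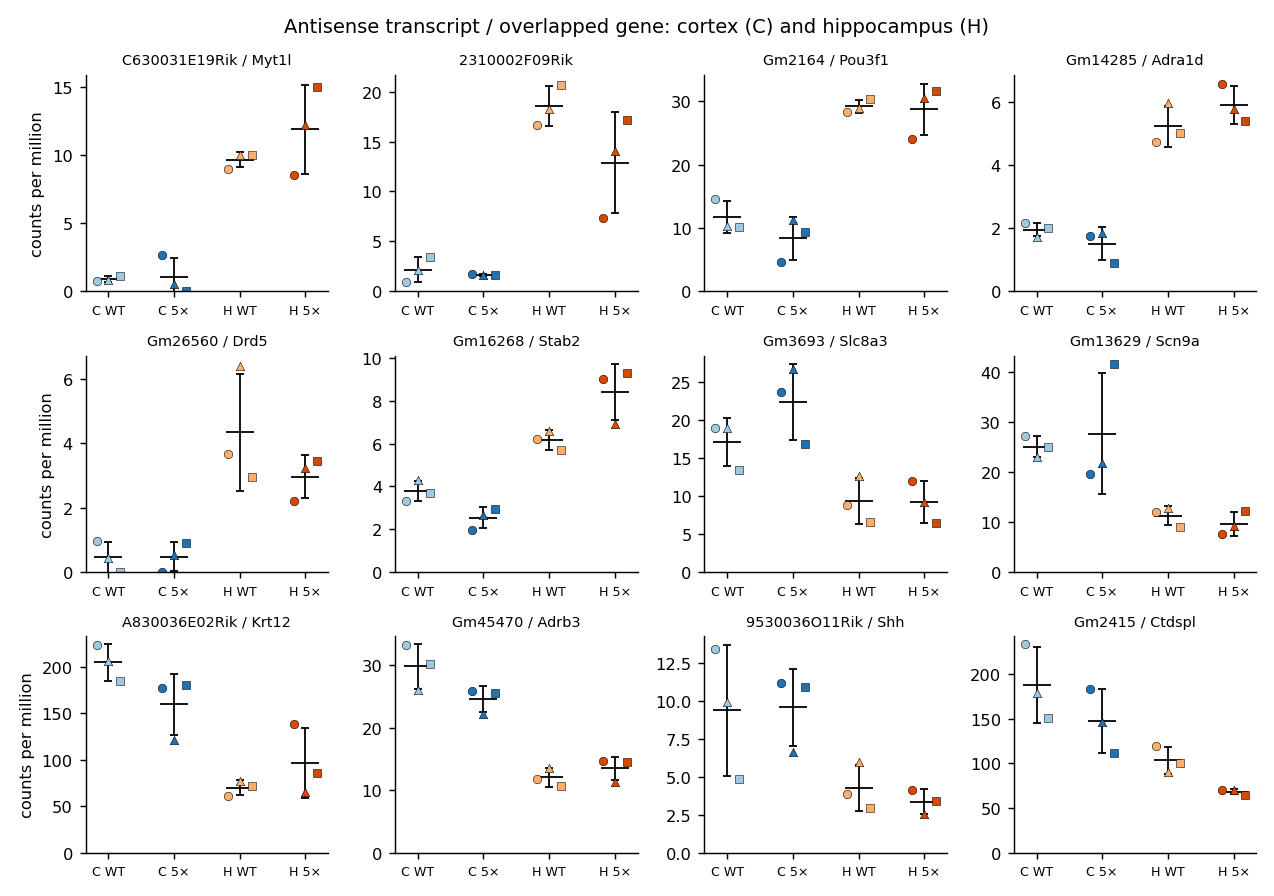
TMM-scaled CPM of 12 antisense transcripts in each library of the cortex (C, blue) and hippocampus (H, orange) of WT and 5 × FAD (5×). Circle, triangle and square are library numbers 1, 2 and 3 of a group, and the bar is the mean ± SD (n = 3). The labels do not say that a number is the same mouse in both regions. The hippocampus groups stand above the cortex groups in the first 6 panels and lower on average in the last 6.

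The genes opposite the 17 transcripts lower in the hippocampus included Scn9a, Adrb3, Krt12 and Shh. Gm13629, which meets the end of Scn9a, had 114, 107 and 88 counts in the cortex of WT and 89, 82 and 184 in that of 5 × FAD. In the hippocampus it had 56, 60 and 40 counts in WT against 31, 40 and 50 in 5 × FAD. No hippocampus library reached a cortex library, and the log2 fold change was -1.33 ± 0.22 (edgeR adjusted p = 0.00671). The transcripts listed for Scn9a, with 142 counts in all, differed by 0.69 ± 0.35 (edgeR adjusted p = 0.308).

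Gm45470 (chr8:27228686-27239752) lies inside the gene of the adrenergic receptor Adrb3. It had 139, 121 and 106 counts in the cortex of WT and 117, 83 and 113 in that of 5 × FAD, against 55, 64 and 47 and 60, 49 and 59 in the hippocampus. The regions stood apart in both genotypes, by -1.08 ± 0.14 on the log2 scale (edgeR adjusted p = 0.00191). The Adrb3 transcripts in the table had 0 counts.

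A830036E02Rik was the most abundant of the called genes. Its transcript ENSMUST00000128904 (chr11:99419972-99425497), opposite Krt12, had 938, 961 and 649 counts in the cortex of WT and 284, 362 and 315 in the hippocampus. In 5 × FAD it had 803, 456 and 798 counts in the cortex and 571, 286 and 351 in the hippocampus, where 5 × FAD 1 of the hippocampus exceeded 5 × FAD 2 of the cortex. In WT alone the log2 fold change was -1.57 ± 0.15 (edgeR adjusted p = 0.0233), and over 12 libraries it was -1.14 ± 0.23 (edgeR adjusted p = 0.0208). Its transcript ENSMUST00000139095 differed by -1.71 ± 0.18 in WT (edgeR adjusted p = 0.0253) and by -1.12 ± 0.26 over 12 libraries. All 4 tested transcripts of the gene were lower in the hippocampus, by -1.25 to -0.62.

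9530036O11Rik (chr5:28466984-28719209) is head to head with Shh, the sonic hedgehog morphogen, from whose start its own lies 272 bases away. It had 56, 46 and 17 counts in the cortex of WT and 51, 25 and 48 in that of 5 × FAD, against 18, 28 and 13 and 17, 11 and 14 in the hippocampus. The regions overlapped in WT and not in 5 × FAD, and the log2 fold change was -1.32 ± 0.29 (edgeR adjusted p = 0.0347). Gm2415, a single exon whose first 3 bases overlap the start of the phosphatase gene Ctdspl, had 494 to 978 counts in the cortex and 265 to 556 in the hippocampus. In CPM, its regions did not overlap in either genotype, and it differed by -0.98 ± 0.16 (edgeR adjusted p = 0.00645).

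The remaining transcripts lower in the hippocampus differed by -1.57 to -0.78. Gm3693, opposite introns of the sodium-calcium exchanger gene Slc8a3, differed by -1.08 ± 0.23. Gm26691, whose first bases are complementary to Cxxc4, differed by -0.84 ± 0.19 and overlapped between the regions in WT. Gm16564, opposite Kif26b, had 7 to 15 counts in the cortex and 2 to 8 in the hippocampus, and differed by -1.51 ± 0.34. A930016O22Rik, opposite the muscle creatine kinase gene Ckm, differed by -1.57 ± 0.37, and Gm44284, opposite introns of Zyx, a protein of focal adhesions, by -1.17 ± 0.26. Gm15943 opposite Klhl38 differed by -1.13 ± 0.20 and Gm6277, head to head with Cables1, a regulator of cyclin-dependent kinases, by -1.07 ± 0.23. Gm3892 and Gm10593, lower by similar amounts (-1.05 ± 0.21 and -0.92 ± 0.21), share 100% of their 31-base words with each other, and Gm27177 (-0.78 ± 0.18) shares 100% with another unnamed gene, so counting could have split their reads and their values are uncertain.

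Markers of neighbouring tissue moved with region in part. Summed over the listed transcripts of 8 of 17 striatum markers, the cortex had 232.4 to 522.7 CPM and the hippocampus 58.7 to 253.3 CPM, without overlap in 5 × FAD. Choroid plexus markers (8 of 19, with Folr1 at 0) had 2.42 to 21.5 CPM in the cortex and 18.5 to 132.4 CPM in the hippocampus, and did not overlap in WT. Blood vessel markers (9 of 18) had 99.4 to 114.4 CPM in the hippocampus of WT and 128.6 to 160.4 CPM in the cortex of WT, while in 5 × FAD the regions overlapped at 112.1 to 136.2 and 131.5 to 149.5 CPM. Their part in the differences between the regions was not tested.

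Where the gene opposite had listed transcripts, the pair could be set side by side. Most rows of the table are non-coding, so these values come mainly from non-coding transcripts of the overlapped gene and not from its mRNA. Over 286 pairs tested for region in 12 libraries, 167 (58.4%) had the same sign, with Pearson's r of 0.11 across pairs. Pairs with exon overlap gave 57.3% and 0.01 (227 pairs) and pairs opposite introns only 62.7% and 0.33 (59 pairs). Pairs that share a gene are not independent. Of 13 pairs with a called antisense transcript, 10 had the same sign, and the listed transcripts of 1 gene were called themselves. That gene was Arhgef26, an exchange factor for the small GTPase RhoG, whose listed transcripts were higher in the hippocampus by 1.22 ± 0.26 (edgeR adjusted p = 0.0137). Its antisense transcript 9330121J05Rik overlaps it head to head by 2189 exon bases and was higher by 1.22 ± 0.27 (edgeR adjusted p = 0.0365), with 8 to 33 counts in the cortex and 26 to 53 in the hippocampus. In an overlap of this length reads of both strands fall on the same bases, and whether they were told apart was not tested.

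**Figure D4:**
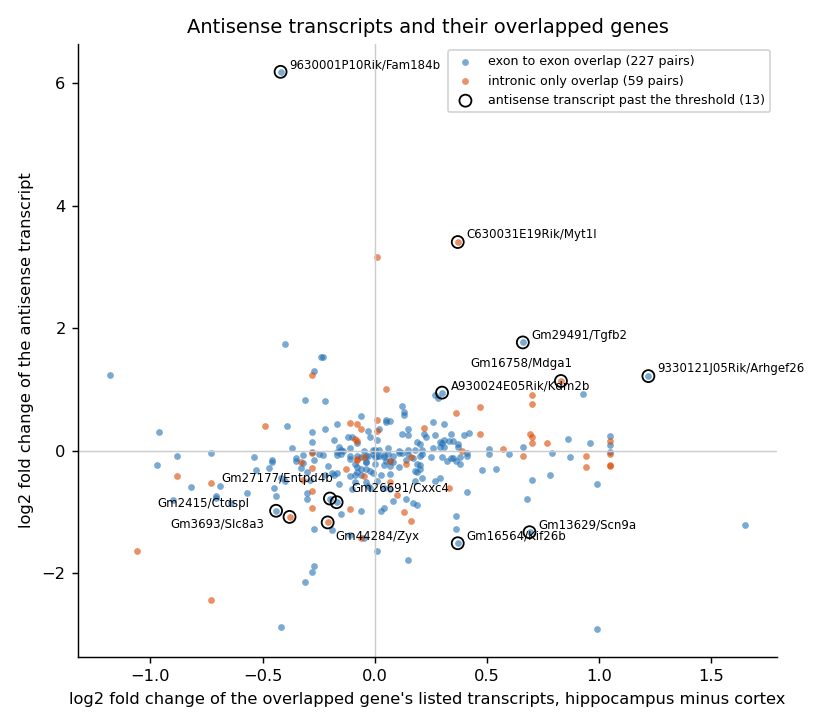
Region difference (log2 fold change, hippocampus minus cortex, 12 libraries) of the overlapped gene's listed transcripts (x axis) and of the antisense transcript (y axis) for 227 pairs with exon overlap (blue) and 59 pairs opposite introns only (orange). Rings mark 13 antisense transcripts with an adjusted p under 0.05, of which 10 had the same sign as the gene, and Arhgef26 lies at 1.22 on both axes.

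Grouped by the function of the gene opposite, few transcripts were abundant enough to test. Transcription factors of cortex and hippocampus had 66 antisense transcripts at 37 genes, of which 20 were tested over 12 libraries, 2 rose in the hippocampus and 1 fell, and the median log2 difference was -0.14. Those that rose were the ones at Myt1l and Pou3f1 given above. Over all tested unnamed antisense transcripts the median was -0.11, and over all transcripts -0.00. For region over 12 libraries, edgeR called 4.89% of the former and 2.63% of the latter. Before adjustment, p fell below 0.05 for 18.6% and 13.6% of them. Ion channels had 52 at 34 genes, of which 5 were tested and 1 fell, Gm13629, with a median of -0.38. Glutamate and GABA receptors and the postsynaptic density had 33 at 22 genes, and 0 of 9 tested were called by edgeR, with 3 at an unadjusted p under 0.05 and a median of -0.52. Axon guidance and adhesion genes had 64 at 46 genes, 0 of 11 called, 1 at an unadjusted p under 0.05 and a median of -0.14. Presynaptic release genes had 26 at 17 genes and 0 of 2 called. Cerebral cortex markers had 14 at 7 genes, of which 6 were tested and 1 fell, with a median of -0.30. Of those opposite markers of astrocytes, oligodendrocytes, microglia, hippocampus, choroid plexus, thalamus, striatum and blood vessels, 1 was tested, Gm48529 opposite the smooth muscle gene Tagln, at 0.00 ± 0.20. For genotype, edgeR called 0 in any of these lists and DESeq2 called 1, Gm45441 opposite Grin2d, in the cortex. At an unadjusted p under 0.05 the hippocampus had 0, while the cortex had 2 of 18 for transcription factors, 1 of 8 for glutamate and GABA receptors and 1 of 5 for cerebral cortex markers. Over all transcripts tested, the share at that level was 7.58% in the hippocampus and 5.34% in the cortex.

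Between the genotypes edgeR called no unnamed antisense transcript, and DESeq2 called few. In the hippocampus, 0 of 510 passed an adjusted p under 0.05 by edgeR (0.0183% of all transcripts), 33 had an unadjusted p under 0.05 (6.47%, against 7.58% of all), and DESeq2 called 2 (0.392%, against 0.58% of all). In the cortex, 0 of 523 passed by edgeR (0.0545% of all), 31 had an unadjusted p under 0.05 (5.93%, against 5.34% of all), and DESeq2 called 1 (0.191%, against 0.464% of all). For the interaction of genotype and region, 0 of 634 passed by edgeR (0.00812% of all), 32 had an unadjusted p under 0.05 (5.05%, against 6.89% of all), and DESeq2 called 1 (0.158%, against 0.426% of all). Without 5 × FAD 1 and 2, which left 1 mouse in 5 × FAD, only sizes are given. The median log2 difference of the unnamed antisense transcripts was then -0.0287 in the hippocampus and 0.00164 in the cortex. Over all transcripts it was -0.0207 and -0.0358. Groups that did not overlap in either region and moved together were 3 of 634 higher in 5 × FAD (0.473%, against 0.516% of all) and 5 lower (0.789%, against 0.82%), while 3 were higher in the hippocampus and lower in the cortex (0.473%, against 0.394%) and 4 the reverse (0.631%, against 0.398%). The design found few modest changes in simulated data for the hippocampus comparison of 20890 transcripts. Of the transcripts changed 2-fold edgeR recovered 1.49%, of those changed 4-fold 28.4%, and of those changed 16-fold 83.3%. The changed transcripts were drawn from the whole table above a minimum level, so these are not shares of the unnamed antisense transcripts.

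Gm13054, which overlaps the end of Nppa, had the smallest p in the hippocampus. It had 22, 19 and 15 counts in WT against 67, 82 and 81 in 5 × FAD there, and 106, 98 and 64 in the cortex of WT and 99, 16 and 105 in that of 5 × FAD. All 3 hippocampus libraries of 5 × FAD lay above those of WT, while in the cortex the groups overlapped and 5 × FAD 2 stood far below the other libraries. In the hippocampus the log2 fold change was 2.18 ± 0.26 (edgeR adjusted p = 0.121), and DESeq2 gave an adjusted p of 1.96e-05. The difference was 2.29 ± 0.31 on the log2 scale without 5 × FAD 1 and 2, which leaves the mouse with Thy1 counts in the WT range, and 2.13 ± 0.26 without 5 × FAD 3. Over all alternatives, DESeq2 among them, the adjusted p ran from 1.96e-05 to 0.735. Between the regions in WT, Gm13054 was lower in the hippocampus by -2.41 ± 0.24 (edgeR adjusted p = 0.0233).

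The other 4 transcripts with the smallest p in the hippocampus did not pass either. Gm16638, opposite the end of Tmc3, a transmembrane channel-like gene, had 42, 46 and 38 counts in WT against 4, 0 and 2 in 5 × FAD, and the log2 fold change was -4.15 ± 0.69 (edgeR adjusted p = 0.301, DESeq2 adjusted p = 7.41e-05, 7.41e-05 to 0.767 over the alternatives). Summed with the gene's other transcript, Gm16638 differed by -0.33 ± 0.18. In the cortex it had 0, 0 and 11 counts in WT against 4, 0 and 21 in 5 × FAD. Gm10069, opposite Pzp, a plasma protease inhibitor, had 6, 4 and 2 counts in WT against 13, 17 and 20 in 5 × FAD. Gm11738, opposite the axonemal dynein gene Dnah17, had 4, 6 and 6 counts in WT against 20, 13 and 15 in 5 × FAD. E530011L22Rik, head to head with the zinc finger gene Zfp651, had 76, 84 and 56 counts in WT against 143, 255 and 114 in 5 × FAD. In each of these 4 the genotypes did not overlap in the hippocampus, as was the case for 90 of 510 unnamed antisense transcripts (17.6%) and 15.8% of all.

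In the cortex the smallest p belonged to Gm45441, opposite the end of Grin2d. Its counts were 145, 192 and 105 in WT and 71, 55 and 80 in 5 × FAD, without overlap. The log2 fold change was -1.11 ± 0.20 (edgeR adjusted p = 0.449, DESeq2 adjusted p = 0.0236, 0.0236 to 0.969 over the alternatives). In the hippocampus it had 141, 9 and 113 counts in WT against 36, 36 and 109 in 5 × FAD, so the genotypes overlapped and WT 2 stood far below. Gm15545, opposite introns of Bcl2l12, a gene of the Bcl-2 family, had 8, 4 and 2 counts in WT against 27, 13 and 31 in 5 × FAD, a difference of 2.27 ± 0.52 (edgeR adjusted p = 0.74). In the hippocampus Gm15545 had 0, 0 and 10 counts in WT against 12, 25 and 41 in 5 × FAD, also without overlap, a difference of 3.04 ± 1.16 (edgeR adjusted p = 0.638). Gm43713 opposite Gon4l differed by 1.38 ± 0.34, Gm15941 by -1.69 ± 0.45 and Gm36423, at the end of the chromatin reader gene Zmynd11, by -1.25 ± 0.33, and none of the 3 passed. Gm43713 shares 84.6% of its 31-base words with another gene, so its counts are uncertain.

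**Figure D5:**
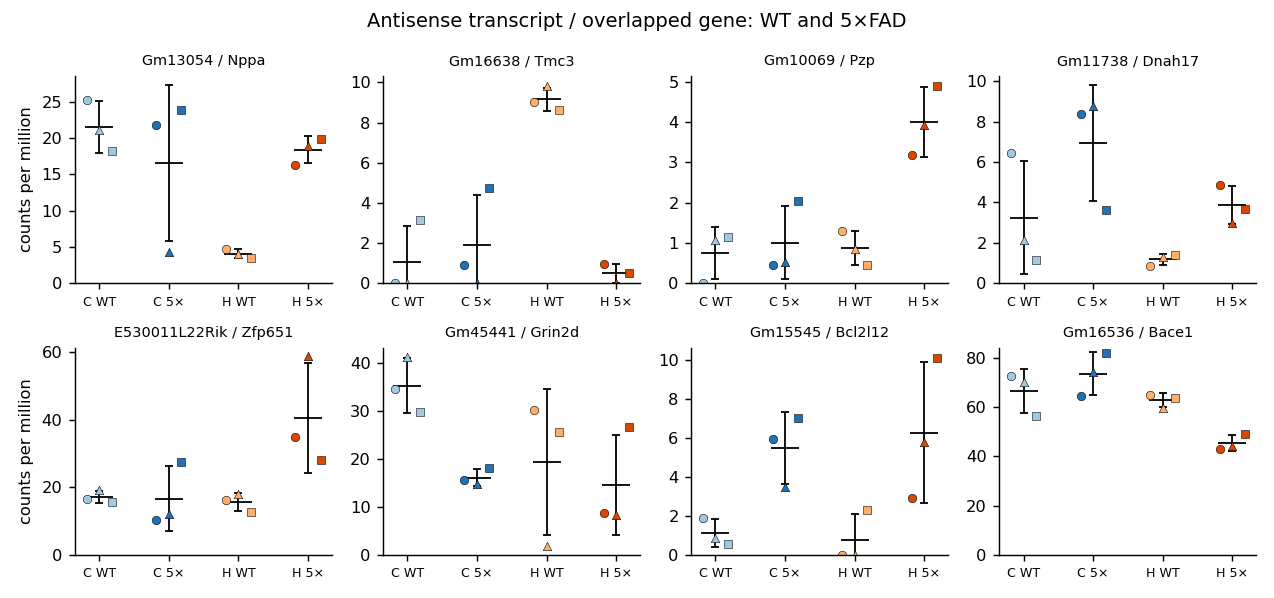
TMM-scaled CPM of 8 antisense transcripts in each library, with groups, symbols and bars as in the plot of region differences. In the hippocampus Gm13054 lies at 4.06 ± 0.655 CPM in WT and 18.4 ± 1.83 CPM in 5 × FAD, and none of the 8 passed an adjusted p under 0.05 by edgeR for genotype.

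Genes of amyloid processing and Alzheimer's disease risk had 20 unnamed antisense transcripts at 16 genes, and 3 were tested. Gm16536, a single exon of 1589 bases inside Bace1, had 302, 280 and 281 counts in the hippocampus of WT and 176, 191 and 200 in that of 5 × FAD, and 305, 327 and 198 and 293, 278 and 362 in the cortex. In the hippocampus the genotypes did not overlap, and in the cortex they did. The hippocampus difference was -0.45 ± 0.17 on the log2 scale, with an unadjusted p of 0.036 and an edgeR adjusted p of 0.638. Gm14455, opposite Cass4, a scaffold protein of focal adhesions, differed by 0.14 ± 0.37 in the hippocampus and -0.30 ± 0.31 in the cortex. Gm16339, at the start of the exchanger gene Slc24a4, differed by -0.12 ± 0.51 and -0.40 ± 0.43. The median of the 3 was -0.12 in the hippocampus and -0.30 in the cortex. Microglia markers, summed over 17 of 35 genes, had 147.9 to 244.9 CPM in WT and 174.7 to 495.4 CPM in 5 × FAD, and no antisense transcript opposite one of them had enough counts to be tested.

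Between genotypes, pairs of antisense transcript and overlapped gene shared their sign about as often as not, 108 of 231 pairs (46.8%) in the hippocampus and 111 of 218 (50.9%) in the cortex, with Pearson's r of -0.07 and -0.01 across pairs. Transcripts switched on in some libraries and off in others were few. With at least 20 counts or at most 3 in every library, and both kinds present, there were 21, which is 1.01% of the unnamed antisense transcripts with counts against 2.38% of all transcripts with counts. The 689 unnamed antisense transcripts with 1 to 9 counts in all could not meet this rule, and the 2 shares were not matched for level.

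RefSeq promoters of GRCm38.p6, from 250 bases before to 50 after a gene's start, were found for 866 of 2377 gene symbols. In these 866, GGGCGG stood on either strand in 28.8%, CCAAT in 35%, TATAAA in 11.3% and TGACGTCA in 1.62%. Of the 227 promoters whose transcripts were tested, the shares were 46.7%, 34.8%, 8.37% and 1.76%. Among all 27025 promoters, they were 35.9%, 37.9%, 14.2% and 1.88%. Of the 29 genes called between the regions 12 had a promoter, and GGGCGG was in 3, CCAAT in 5 and TATAAA in 1. The promoter of Gm13629 is shown because this transcript kept its region difference in every alternative, with CCAAT in capitals as its reverse complement on the strand printed.

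Gm13629 (promoter, chr2:66440630-66440929, plus strand): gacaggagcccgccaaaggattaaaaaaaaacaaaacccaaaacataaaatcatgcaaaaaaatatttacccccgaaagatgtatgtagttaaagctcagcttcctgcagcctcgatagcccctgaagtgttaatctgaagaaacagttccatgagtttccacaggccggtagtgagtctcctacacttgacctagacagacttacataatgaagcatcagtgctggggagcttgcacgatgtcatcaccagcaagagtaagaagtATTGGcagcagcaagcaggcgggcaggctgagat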

How the data were processed

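RNA was sequenced in 12 libraries. The authors deposited raw counts per transcript as whole numbers, made from stranded paired-end libraries depleted of ribosomal RNA. Trimmomatic 0.36 and edgeR are named in the submitters' processing notes. The counting program, the genome build and the use of strand in counting are not given in the sources used here. All 12 count columns were used. Transcript types, positions and overlapped genes were taken from GENCODE M21 (GRCm38), with 225 Ensembl identifiers not found.

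The test was that of edgeR 4.0.16 under R 4.3.3 (filterByExpr, TMM, glmQLFit and glmQLFTest) over all transcripts, with Benjamini-Hochberg adjustment at 0.05. SEs are log2 fold changes divided by the root of F. Each comparison used its own 6 libraries. The interaction and the region effect over both genotypes used 12, the latter added after the data were seen. The share of counts was compared by a 2-sided exact permutation test. Simulated counts were analysed first. Tables and figures were made with Python 3.11.15, pandas 2.3.3, SciPy 1.17.1 and matplotlib 3.10.9.

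The members and gene lists were chosen with earlier results of these data known. The rule for named transcripts took genotype and interaction calls, or else the 5 smallest p, region calls made in both genotypes, of which there were 0, the 10 highest per kilobase, and up to 4 per list. The transcripts called between regions, 9530026P05Rik, Gm4673 and 6330403L08Rik were named after their values were seen, and 1 of those called is not reported here.

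Alternatives were other scalings, DESeq2 1.42.0, other filters on low counts, a replicate block, sums per gene, 1 fit of 12 libraries, each library left out, and 5 × FAD 1 and 2 left out. Replicates are separate mice and differed by more than counting noise (chi-square per degree of freedom 20.8 to 33 in 12 pairs).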

Additional observations from a re-analysis of the deposited data

Results flagged for a closer look

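In 6 of the named antisense transcripts every hippocampus library of 5 × FAD lay on one side of WT and every cortex library on the other side, and the edgeR interaction of genotype and region passed the threshold in 0 of them. Among all 634 tested, 3 were higher in the hippocampus and lower in the cortex of 5 × FAD (0.473%, against 0.394% of all transcripts) and 4 the reverse (0.631%, against 0.398%). The seventh was 9530026P05Rik, opposite introns of Adamts9, which no rule for named transcripts had chosen.

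The log2 interaction, hippocampus minus cortex, was 1.65 ± 0.38 for E030037K01Rik, head to head with Cdkn2aip, whose protein binds the ARF tumour suppressor. It had 9, 10 and 9 counts in the hippocampus of WT and 17, 23 and 12 in that of 5 × FAD, against 26, 28 and 20 and 18, 15 and 15 in the cortex. For Gm16268, opposite Stab2, the interaction was 1.01 ± 0.35, and for the A830036E02Rik transcript ENSMUST00000139095, opposite Krt12, it was 1.13 ± 0.40. It was -2.73 ± 0.71 for 9330159M07Rik, opposite the end of Trim43c, which shares 20.5% of its 31-base words with other genes. It was -2.47 ± 0.70 for 4833422C13Rik, head to head with the thioesterase gene Acot12, with 3, 12 and 4 counts in the cortex of WT and 15, 28 and 18 in that of 5 × FAD, against 26, 28 and 35 and 9, 21 and 18 in the hippocampus. The A230077H06Rik transcript ENSMUST00000188579, which has no coding gene opposite, had an interaction of -0.75 ± 0.24. The edgeR adjusted p of the 6 ran from 0.613 to 0.661.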

How the results depend on the processing

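The number of called antisense transcripts depended on the setting. DESeq2 in place of edgeR called 2 for genotype in the hippocampus, 1 in the cortex, 1 for the interaction (Gm4673, opposite Lsr), 28 for region in WT, 8 in 5 × FAD and 53 over 12 libraries, each given above beside the share of all transcripts. Sums per gene called 21 of 455 genes for region in WT, against 400 of all 11431 genes tested. In 5 × FAD they called 1 of 440 (2310002F09Rik), against 22 of 11404, and over 12 libraries 49 of 521, against 803 of 12109. No filter called 5 of 1833 in WT, against 71 of all 38322 transcripts tested. At least 10 counts in every library called 14 of 318, against 355 of 16043. For 5 × FAD, 1 fit of all 12 libraries called 6 of 634, against 160 of 24632. Without 5 × FAD 1 and 2, which left 1 mouse in 5 × FAD, the interaction of 6330403L08Rik, opposite Pdgfa, was 9.99 on the log2 scale. This transcript had 51 to 1204 counts in 11 libraries and at most 3 in the rest. For region over both genotypes, the same omission called 8 of 789, against 188 of all 27506 transcripts. Leaving out 1 library gave 0 to 4 calls for region in WT, 14 to 29 over 12 libraries, and 0 elsewhere. Over all transcripts, these numbers were 7 to 63, 412 to 723 and 0 to 39. The cause was not tested.

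With the replicate number as a block, 0 were called for region in WT and 0 in the genotype, interaction and 5 × FAD comparisons. Over 12 libraries 12 of 634 were called, against 267 of all 24632 transcripts. Both regions came from each mouse, but the labels do not say that a number is the same mouse in both. Deviations from group means correlated by 0.00691 to 0.121 between same-numbered libraries of the 2 regions. Between differently numbered libraries of the same genotype the correlations were -0.101 to 0.0568. These ranges overlap, and the pairing was not established.

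Requiring exon overlap left 776 transcripts within a gene and 45 that span one. The share of counts differed between genotypes in the cortex by -0.0757 to 0.0307 percentage points when 1 library was left out, reversing without WT 1 (0.0307), and by -0.0752 to -0.0317 in the hippocampus. Between regions it differed by -0.167 to -0.0604 in WT and -0.165 to -0.131 in 5 × FAD. Summed over their gene's transcripts, Gm10069 (-0.03, genotype in the hippocampus), Gm15941 (0.68, genotype in the cortex) and 9630001P10Rik (-0.08, region) reversed. The filter on low counts left 634 of the 3276 transcripts to test in 12 libraries.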
